A study of Homo sapiens with 9 samples.

Results

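The FRMD8, NEAT1 and MALAT1 locus is a 250-kb window of chromosome 11 (hg19, chr11:65100000-65350000) that holds 3 genes on which γH2AX regions were measured in K562 cells, an established human chronic myelogenous leukaemia line. The 3 genes were assigned to the spans FRMD8 (gene ID 83786, chr11:65154070-65180995), NEAT1 (gene ID 283131, chr11:65190245-65213011) and MALAT1 (gene ID 378938, chr11:65265233-65273940). The window was chosen by region length, because the longest region of 1 library lies in it, a region of 26470 bp over FRMD8 in FANCL-knockout cells given PMA (replicate 1), so the length and extent of regions in that library chose the members and are given below as description only. The next longest region of that library, which the choice left out, measured 21632 bp (chr9:139900710-139922342). In all 8 γH2AX libraries together, 169 of 234983 deposited regions overlapped the window. Of these, 19 touched FRMD8, 14 touched NEAT1, 1 touched MALAT1 and 135 touched none of the 3 genes.

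γH2AX is the histone variant H2AX phosphorylated by damage-response kinases around DNA double-strand breaks and stalled replication forks, and the mark can spread far along the chromatin on either side of the damage. FRMD8, also called iTAP, is a protein with a FERM domain that binds the iRhom proteins and helps to keep the shedding protease ADAM17 at the cell surface. NEAT1 is the long noncoding RNA on which nuclear paraspeckles assemble. MALAT1 is an abundant long noncoding RNA of nuclear speckles. FANCL is the E3 ubiquitin ligase of the Fanconi anaemia pathway, which acts on DNA crosslinks and stalled forks.

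Chromatin was immunoprecipitated with an antibody against γH2AX and sequenced in 4 groups of 2 libraries each. The groups were K562 wild type (WT) or FANCL knockout (KO), each mock treated or given PMA at 5 nM for 72 h, a phorbol ester under which these cells differentiate towards a megakaryocyte-like state. One input library, from WT mock cells, served as the background for the regions of every group, so the KO and PMA cells had no input of their own. The labels do not say whether the KO cells are 1 clone, nor whether the replicates were separate cultures, and p-values therefore cover only the library-to-library spread, which may be technical. The region lists carry no measure of FANCL, and the genotype rests on the labels.

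The libraries held 15.6 to 27.2 M tags, and the input 18.6 M. The tag number that a 500-bp stretch had to reach followed the depth, and per 10 M tags it was 5.89 to 7.07 in the WT libraries and 7.12 to 7.69 in the KO libraries. By this threshold alone, a given density of tags was called at least as readily in WT as in KO. A region also had to stand at least 2-fold over the WT mock input, at a Poisson p-value of 0.0001. Total regions numbered 14324 and 11959 in WT mock, 42546 and 36252 in WT PMA, 24773 and 24340 in KO mock, then 42896 and 37893 in KO PMA. Paired values are replicates 1 and 2, in this order, throughout. A place without a region is one where tags stayed under the tag threshold or did not pass the filters over input, not one without γH2AX.

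The start positions of the 3 gene spans lay outside the regions of all 8 libraries. Covered in no library were 39.4% of the window, 5.05% of FRMD8, 66.4% of NEAT1 and 92.6% of MALAT1. Whether starts differ from other positions was not tested. The promoters are shown to give the sequence around starts listed by RefSeq, which may not be the starts of the spans. In the KO libraries the uncovered stretch around the FRMD8 start measured 6.07 and 9.76 kb in mock cells and 2.74 and 3.19 kb after PMA. Around the NEAT1 start it measured 28.9 and 20.3 kb in mock cells and 10.98 and 16.6 kb after PMA, and around the MALAT1 start 36.9 and 83.2 kb and then 12.9 and 19.6 kb. RefSeq's promoter sequences (GRCh38.p14, 250 bases before to 50 after a start, plus strand) held 1 entry for FRMD8 at chr11:65386387-65386686 and 2 for MALAT1 at chr11:65497488-65497787 and chr11:65498795-65499094. These positions belong to GRCh38 and cannot be set against the hg19 positions of the regions. Capitals mark a CCAAT box, here read as ATTGG on the opposite strand, in FRMD8 and the letters TATAAA in the second MALAT1 entry.
FRMD8 promoter: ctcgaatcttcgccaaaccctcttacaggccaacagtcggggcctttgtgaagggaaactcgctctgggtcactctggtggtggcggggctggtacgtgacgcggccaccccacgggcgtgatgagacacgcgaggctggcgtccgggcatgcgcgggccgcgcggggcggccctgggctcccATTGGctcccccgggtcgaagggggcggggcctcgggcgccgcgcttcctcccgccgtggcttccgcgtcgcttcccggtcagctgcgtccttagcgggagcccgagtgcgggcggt
MALAT1 promoter, first entry: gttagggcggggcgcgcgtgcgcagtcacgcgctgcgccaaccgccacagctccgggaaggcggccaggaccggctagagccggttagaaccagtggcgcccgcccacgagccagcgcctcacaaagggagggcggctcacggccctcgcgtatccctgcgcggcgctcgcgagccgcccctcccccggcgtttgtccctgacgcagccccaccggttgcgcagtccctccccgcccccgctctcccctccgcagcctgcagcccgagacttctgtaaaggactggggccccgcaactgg
MALAT1 promoter, second entry: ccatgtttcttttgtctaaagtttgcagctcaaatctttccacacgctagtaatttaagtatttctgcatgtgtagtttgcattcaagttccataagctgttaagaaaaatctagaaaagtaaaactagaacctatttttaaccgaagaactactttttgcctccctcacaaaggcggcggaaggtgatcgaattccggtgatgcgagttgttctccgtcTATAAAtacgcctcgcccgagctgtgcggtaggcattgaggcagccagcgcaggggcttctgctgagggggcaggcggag
The 2 motifs searched, CCAAT and TATAAA, on both strands and without overlap between them, occur in 34.6% and 11.5% of the 35116 promoters of the table. The FRMD8 promoter had a GC content of 72.0% and 38 CpG, the first MALAT1 promoter 73.7% and 37, and the second MALAT1 promoter 46.0% and 14. The medians over all promoters were 58.7% and 14, so the FRMD8 promoter and the first MALAT1 promoter are GC-rich, with a GC content at or above that of 84.9% and 88.5% of promoters, and the second is not.

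Over the whole window, regions covered little in WT cells, more in KO mock cells and most in KO cells after PMA. Covered length was 1.5 and 2.18 kb in WT mock, 0.5 and 4.76 kb in WT PMA, 23.8 and 24.5 kb in KO mock, then 123 and 113 kb in KO PMA. The KO mock libraries lay above all 4 WT libraries and the KO PMA libraries above all others, while the WT mock values fell inside the range of WT PMA. As shares of the window these lengths are 0.600% and 0.872%, 0.200% and 1.90%, 9.53% and 9.80%, and 49.1% and 45.4%. Set against the share of the genome that each library's regions covered, the window was covered 1.89 and 3.23 times as densely in WT mock, 0.194 and 2.33 times in WT PMA, 16.8 and 17.2 times in KO mock, then 35.1 and 39.9 times in KO PMA. Regions of at least 5 kb were found here in KO PMA only, 4 in each replicate, and over the whole genome they numbered 667 and 394 in KO PMA beside 42 to 85 in each other library.

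**Figure D1:**
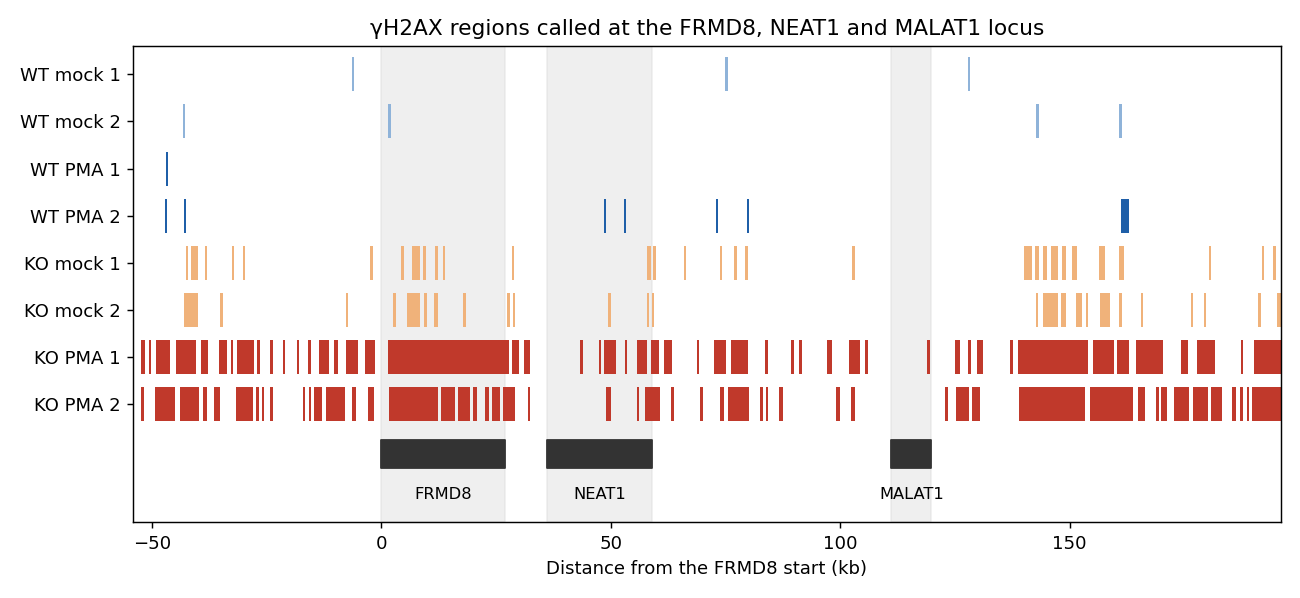
γH2AX regions of each library (bars, 1 row per library) along the window, by distance from the FRMD8 start in kb, with the 3 gene spans as black bars and grey bands. The 2 KO PMA rows are most covered over FRMD8 and downstream of MALAT1, and MALAT1 itself holds 1 region, in KO PMA replicate 1.

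FRMD8, the protein-coding gene of the locus, was all but free of regions in WT cells, held scattered short regions in KO mock cells and was covered over most of its span in KO PMA cells. Its covered length was 0 and 0.679 kb in WT mock, 0 kb in both WT PMA libraries, 4.22 and 5.45 kb in KO mock, then 25.5 and 20.2 kb in KO PMA. The 2 WT groups overlapped, both KO mock libraries lay above all WT libraries, and both KO PMA libraries lay above those. Of the 26.9-kb span this is 15.7% and 20.2% in KO mock, then 94.8% and 74.9% in KO PMA. The group means were 0.340 ± 0.480 kb in WT mock, 4.83 ± 0.875 kb in KO mock and 22.8 ± 3.77 kb in KO PMA (SD, n = 2 each). In these pooled cells, a high level in few cells and a low level in many cannot be told apart.

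**Figure D2:**
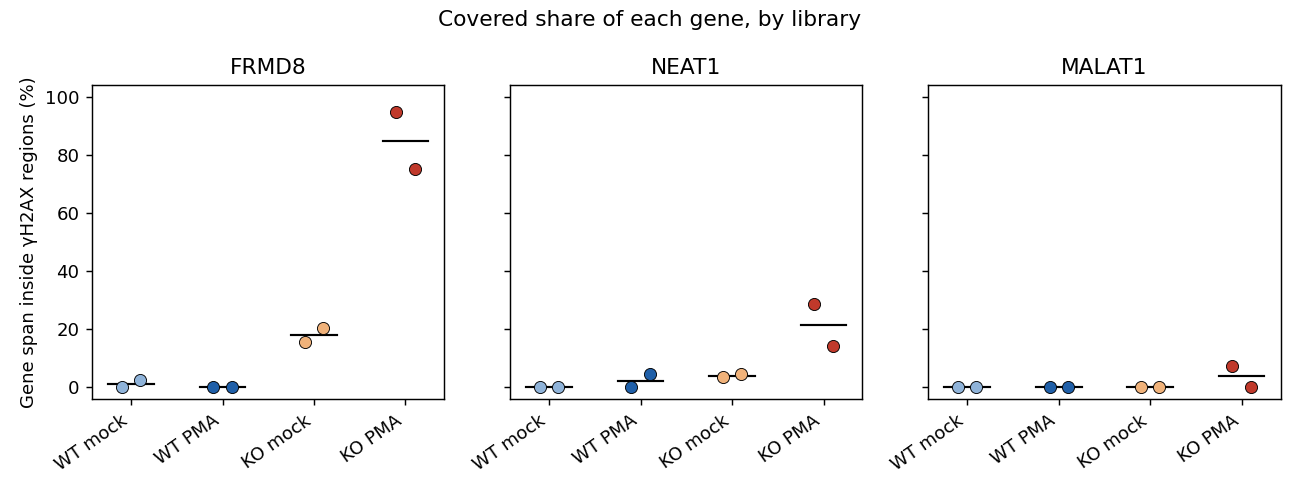
Share of each gene's span (%) inside γH2AX regions, with 1 point per library and a line at the mean of the 2 libraries of a group. FRMD8 stands at 94.8% and 74.9% in KO PMA, NEAT1 at 28.7% and 14.2%, and MALAT1 at 7.44% and 0%.

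The shape of the FRMD8 regions differed between the KO groups too. In KO mock, 5 regions in each replicate lay apart from one another, the longest of 1656 and 2695 bp, which ranked 1031st and 335th by length among all regions of their libraries. In KO PMA replicate 1, 1 region (chr11:65155479-65181949) ran from 1409 bp after the gene's start to beyond its end. In KO PMA replicate 2, 7 regions lay along the same stretch with 6 gaps of 518 to 1854 bp between them, and the longest (chr11:65155702-65166397) measured 10695 bp and ranked 44th. Closing gaps of up to 1 kb brought replicate 2 to 87.1% of the span, beside 94.8% in replicate 1. The 2 KO PMA replicates thus share the position of the block and differ in where it is interrupted: all 20.2 kb covered in replicate 2 was covered in replicate 1, where it made up 79.1% of the covered length.

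Along the gene, the regions of KO mock cells gathered nearer its start. In 5 equal segments of 5.39 kb from the start to the end of FRMD8, coverage was 12.1%, 43.5%, 22.7%, 0% and 0% in replicate 1 and 14.7%, 59.3%, 15.1%, 12.1% and 0% in replicate 2. Segment 2 was the most covered in both. In KO PMA the values were 73.8% and then 100% in each later segment in replicate 1, and 69.7%, 100%, 87.1%, 65.6% and 52.3% in replicate 2. Segment 2 was covered throughout in both replicates, and segment 5, without regions in KO mock, was covered in both.

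**Figure D3:**
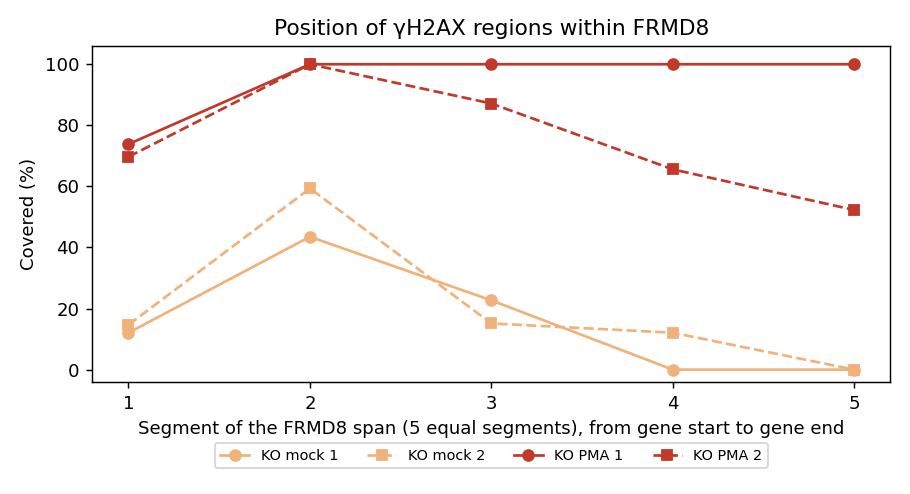
Share (%) of each of 5 equal segments of the FRMD8 span inside γH2AX regions, from gene start to gene end, for the 4 KO libraries (1 line each). Both KO mock lines peak in segment 2, at 43.5% and 59.3%, and both KO PMA lines reach 100% there.

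On FRMD8, nearly all that was covered in KO mock lay within what was covered in KO PMA. Regions of KO PMA held 94.8% and 74.9% of the span, so a high overlap was largely fixed in advance. Whether the overlap exceeds what that coverage alone would give was not tested. Of the FRMD8 bases covered in KO mock, 100% of both replicates lay in regions of KO PMA replicate 1, and 97.5% and 99.0% in regions of KO PMA replicate 2. In the other direction, these shared bases made up 16.5% to 26.7% of the KO PMA length. The 2 KO mock replicates shared 2.65 kb, which is 63.0% of replicate 1 and 48.7% of replicate 2, and 3 of the 5 regions of each touched one of the other. Stretches of 1656, 328 and 615 bp (chr11:65160767-65162423, chr11:65163416-65163744 and chr11:65165782-65166397) were covered in all 4 KO libraries and in no WT library. Of the span, 5.05% was covered in no library, all of it at the start of the gene.

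Normalised tags on FRMD8, scaled to 10 M tags per library, were 0 and 11.1 in WT mock and 0 in both WT PMA libraries. They came to 77.9 and 120.6 for KO mock, and for KO PMA to 582 and 458. Per kb of covered length, the density was 16.3 in the 1 covered WT library, 18.5 and 22.1 in KO mock, then 22.8 and 22.7 in KO PMA. The tag total followed the covered length, while the mean density over the covered bases of a library was at most 1.60 times its calling threshold. Fold over the WT mock input was 3.63 and 3.86 in KO mock, then 3.58 and 3.47 in KO PMA, so the long regions did not stand higher over input than the short ones. Input tags per kb were 5.10 and 5.72 under the KO mock regions of FRMD8 and 6.38 and 6.55 under those of KO PMA, above the median of 4.25 to 4.36 over all regions of the 4 KO libraries. The part of a high input density, or of the missing KO input, in the FRMD8 values was not tested.

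**Figure D4:**
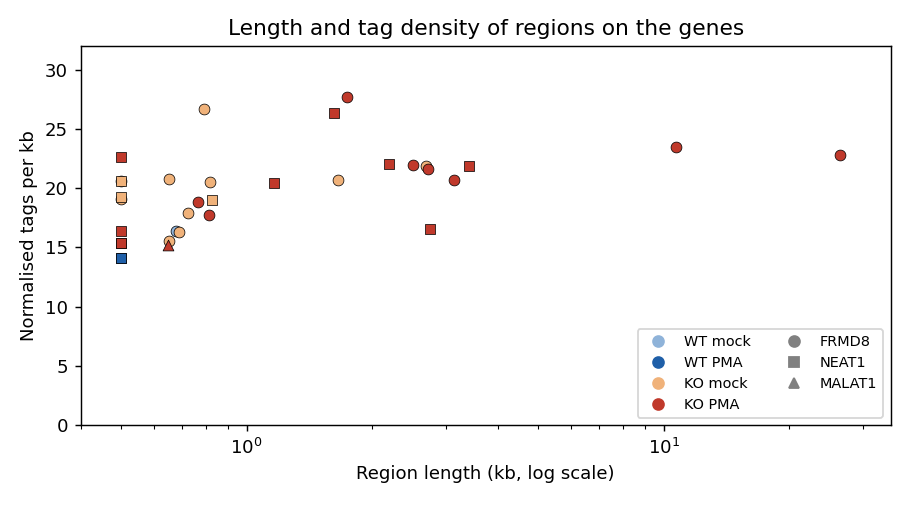
Length (kb, log scale) and normalised tags per kb of the 34 regions on the 3 genes, with 1 point per region, coloured by group and shaped by gene. The FRMD8 region of 26470 bp has a density of 22.8 tags per kb, inside the range of the regions under 5 kb.

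In the test between genotypes without PMA, FRMD8 was covered more in KO than in WT. The locus was chosen in a KO library, so this comparison may not be free of that choice, although it does not use that library's values as a group. The fit, limma on log2(covered bp + 1000) over all 25-kb bins of chromosomes 1 to 22 and X covered in at least 2 libraries, gave a log2 difference of 2.16 (SE 0.29, adjusted p = 0.0111), on a scale that understates the change of a little-covered gene. The group means differed 14.2-fold, and both KO libraries lay above both WT libraries. FRMD8 was 1 of 2 genes of the locus that could be fitted, and over all 23216 bins 9.27% were called higher and 2.44% lower in this comparison. The call was lost without KO mock replicate 1 (adjusted p = 0.0556, limma), without KO mock replicate 2 (0.0764) and when the same number of regions was taken from each library (log2 difference 1.34, adjusted p = 0.608). It held at 0.82 with regions of at least 6-fold (adjusted p = 0.00136) and at 3.39 with a pseudocount of 250 bp (0.0277).

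PMA in WT cells left FRMD8 without a region, and no difference from WT mock was detected. The log2 difference was -0.37 (SE 0.29, limma adjusted p = 0.472), and it rests on the single region of 679 bp in WT mock replicate 2 (chr11:65155429-65156108). Over all bins, 19.9% were called higher and 2.09% lower after PMA in WT, and the median bin rose by 0.39 on the log2 scale. The comparison shares the WT mock libraries with that between genotypes.

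For comparisons that involve KO PMA, replicate 1 was left out of the test, since its longest region chose the locus. The labels do not say whether the 2 replicates were separate cultures. Leaving out replicate 1 may therefore not free these tests from that choice. The remaining library, KO PMA replicate 2, was assumed to vary like the other groups. Against WT PMA, FRMD8 was higher in this library by 4.40 on the log2 scale (SE 0.38, limma adjusted p = 0.0069), where 10.2% of 21711 bins were called higher and 10.5% lower. When regions below 6-fold over input were left out, this difference was 0.00, since the regions of FRMD8 in that library stood at 3.18-fold to 4.46-fold. Described with both replicates, the difference was 4.57.

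Within KO cells, FRMD8 was higher in KO PMA replicate 2 than in mock by 1.87 on the log2 scale (SE 0.38, limma adjusted p = 0.079), which missed the threshold of 0.05. Over all bins, 4.21% were called higher and 2.54% lower. Restricted to regions of at least 1000 bp the difference was 2.65 (adjusted p = 0.00989), and restricted to regions of at least 6-fold it turned to -0.82 (adjusted p = 0.0117). That turn comes from KO mock, where 1 region in each replicate reached 6-fold and 7.74-fold. Described with both KO PMA replicates, mean covered length was 4.73-fold that of mock.

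The PMA response of FRMD8, KO minus WT, was 2.24 on the log2 scale (SE 0.48, limma adjusted p = 0.072), also above the threshold, while 2.90% of bins were called higher and 8.26% lower. It became 2.65 (adjusted p = 0.0103) with regions of at least 1000 bp, 2.74 (0.0481) with the same number of regions per library and -0.82 (0.00711) with regions of at least 6-fold. The 3 comparisons that use KO PMA share 1 library, the last 2 also share KO mock, and the first and last share WT PMA.

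NEAT1, the paraspeckle RNA gene, was covered over less of its span than FRMD8 in each KO library, and its longest region was shorter there than the longest of FRMD8. Its covered length was 0 kb in both WT mock libraries, 0 and 1 kb in WT PMA, 0.827 and 1 kb in KO mock, then 6.53 and 3.24 kb in KO PMA. The KO mock and WT PMA libraries overlapped, and both KO PMA libraries lay above the other 6. Of the 22.8-kb span this is 3.63% and 4.39% in KO mock, then 28.7% and 14.2% in KO PMA, with means of 4.01 ± 0.537% and 21.5 ± 10.2% (SD, n = 2 each). The spread between the 2 KO PMA replicates was thus wide beside their mean.

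Regions on NEAT1 lay away from its start. The first covered base after the start came at 12.3 kb in WT PMA replicate 2, at 21.7 and 13.3 kb in KO mock and at 7.21 and 12.8 kb in KO PMA. In 3 equal segments of the gene, KO mock covered 0%, 0% and 10.9% in replicate 1 and 0%, 6.59% and 6.59% in replicate 2. KO PMA covered 4.98%, 44.5% and 36.6% in replicate 1 and 0%, 15.4% and 27.4% in replicate 2. The segment at the start was the least covered, or equal least, in each of these libraries, and 66.4% of the span was covered in no library.

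The NEAT1 regions numbered 6 and 3 in KO PMA, and the longest measured 2754 bp (chr11:65202519-65205273) and 3423 bp (chr11:65211435-65214858). The second of these ran past the gene's end, as did a region of replicate 1. The 2 replicates shared 2.31 kb, which is 35.4% of replicate 1 and 71.3% of replicate 2, beside 79.1% and 100% on FRMD8. Such shares rise with coverage, which was 28.7% and 14.2% on NEAT1 and 94.8% and 74.9% on FRMD8. They therefore do not tell on which gene the replicates match better. All 4 KO libraries covered 1 stretch of 90 bp inside the gene (chr11:65211944-65212034) and 1 of 242 bp just beyond its end (chr11:65213320-65213562).

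Normalised tags on NEAT1 were 14.1 in WT PMA replicate 2, 15.7 and 19.9 in KO mock, then 119 and 69.6 in KO PMA, and 0 in the other WT libraries. Counting whole regions that touch the gene raised the KO PMA mean from 94.6 to 135.0. The density in covered bases was 14.1 tags per kb in WT PMA replicate 2, 19.0 and 19.9 in KO mock, then 18.3 and 21.5 in KO PMA. In the KO libraries these values lie within the range of the FRMD8 regions.

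None of the 5 comparisons called NEAT1. KO against WT in mock cells gave a log2 difference of 0.93 (SE 0.42, limma adjusted p = 0.3), and PMA against mock in WT gave 0.50 (SE 0.42, 0.502), which turned to -0.085 once each library was centred on its median bin. Without KO PMA replicate 1, KO against WT after PMA gave 1.58 (SE 0.46, limma adjusted p = 0.0871), PMA against mock in KO 1.15 (SE 0.46, 0.255) and the difference of the PMA responses 0.65 (SE 0.59, 0.531). The first of these passed the threshold without WT PMA replicate 1 (1.08, adjusted p = 0.0303), without WT PMA replicate 2 (2.08, 0.00729), with 1 tag threshold for all libraries (2.08, 0.00205) and with normalised tags in place of length (2.36, 0.0486). PMA against mock in KO also passed at 1.15 without either WT PMA library (0.0159 and 0.013) and with 1 tag threshold (0.0109), and the difference of responses passed at 1.15 without WT PMA replicate 2 (0.0326) and with 1 tag threshold (0.0199). Without a WT PMA library, the difference between PMA and mock in KO stayed at 1.15, while its SE fell from 0.46 to 0.088 and 0.081. The spread of NEAT1 was then left to WT mock (0 kb in both) and KO mock (0.827 and 1 kb), near the floor. Passes without a WT PMA library thus rest on that small spread. Described with both KO PMA replicates, mean covered length was 9.77-fold that of WT PMA and 5.35-fold that of KO mock.

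MALAT1, the nuclear-speckle RNA gene, held 1 region in 1 of the 8 libraries. It lay in KO PMA replicate 1 (chr11:65272937-65273585), near the end of the gene, and covered 0.648 kb or 7.44% of the 8.7-kb span. Its 9.86 normalised tags amount to 15.2 per kb, 1.07 times the threshold of that library, at 3.67-fold over input. The other 7 libraries held no region on MALAT1, KO PMA replicate 2 among them, and 92.6% of the span was covered in no library. Because it was covered in 1 library only, MALAT1 did not pass the filter on little-covered features and was not tested.

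By share of span, the order in KO PMA was FRMD8, NEAT1 and MALAT1, with no overlap between the replicates of neighbours in that order. In KO mock the order was the same, at 15.7% and 20.2%, 3.63% and 4.39%, and 0% in both. In WT cells the genes overlapped, with 0% in all but 1 library each for FRMD8 (2.52%, WT mock replicate 2) and NEAT1 (4.39%, WT PMA replicate 2). The order is a description, since the locus was picked for its covered length.

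Coverage did not stop at the genes. In KO PMA, 49.0% and 47.7% of the 54.1 kb upstream of FRMD8 was covered, 41.2% and 29.1% of the 9.25 kb between FRMD8 and NEAT1, 30.5% and 22.9% of the 52.2 kb between NEAT1 and MALAT1, and 57.8% and 65.1% of the 76.1 kb downstream of MALAT1. In KO mock these shares were 7.36% and 7.41%, 5.41% and 12.3%, 6.41% and 0.957%, and 14.4% and 16.3%. FRMD8 and the stretch downstream of MALAT1 were thus the most covered segments in each KO library, on either side of NEAT1 and MALAT1. Downstream of MALAT1, the longest regions measured 15172 bp (chr11:65292821-65307993) and 14413 bp (chr11:65293006-65307419) in KO PMA. A stretch there (chr11:65314906-65315492) was covered in at least 5 libraries throughout and in 6 of 8 at its most covered, the most at any position of the window.

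RefSeq (GRCh38.p14) gives FRMD8 a length of 45500 bases, beside the 26925 bp of the span used here. Ordered by start, it lists SLC25A45, a mitochondrial carrier gene, after FRMD8 and before NEAT1. That order does not tell on which side of the FRMD8 span SLC25A45 lies. The lengths of NEAT1 (22743 against 22766) and MALAT1 (8779 against 8707) are close in both. Some of the regions counted outside FRMD8, upstream of it or between it and NEAT1, may therefore fall in FRMD8 under the longer gene model. The added length of FRMD8 exceeds the 9.25 kb between FRMD8 and NEAT1, so it cannot all lie there. Exons, introns and UTRs were not assigned, since no hg19 annotation was used here. RefSeq also lists TALAM1 antisense to MALAT1 and MASCRNA beside it, and γH2AX regions carry no strand that would assign them to one of these.

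Of the 10 bins of 25 kb that make up the window, 5 were called higher in KO mock than in WT mock and 0 lower. Over all 23216 bins, 9.27% were called higher and 2.44% lower. The median log2 difference was 1.37 in the window beside 0.00 over all bins tested. Since the window was chosen in a KO library, these bins may not be free of that choice. For the comparisons with KO PMA, the shares over all bins were given above with FRMD8. The 5 bins called in mock cells are the first bin of the window, the bin over most of FRMD8 and the 3 bins beyond MALAT1. The bin over FRMD8 gave 2.23 (adjusted p = 0.00796, limma), and the highest of those beyond MALAT1 gave 2.65. The count fell to 1 without KO mock replicate 2 and to 2 without KO mock replicate 1, WT mock replicate 1 or WT mock replicate 2. After PMA without KO PMA replicate 1, 8 bins were higher in KO than in WT and 0 lower, with a median of 3.32 beside -0.14 over all bins, and the 2 that were not called hold MALAT1 and most of the stretch before it. That count was 5 without WT PMA replicate 1, with the pseudocount of 250 bp and with a replicate block, 4 with regions of at least 1000 bp and 0 with regions of at least 6-fold.

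PMA in WT cells called 0 of the 10 bins in either direction, where 19.9% of all bins were called higher and 2.09% lower. The median was 0.00 in the window beside 0.39 over all bins. At an unadjusted limma p below 0.05 the count was 1, a lower value of -0.58 in the bin that begins just after MALAT1. In KO cells, 4 of the 10 bins were higher after PMA and 0 lower, with a median of 1.77 beside 0.00, and the count was 0 without WT mock replicate 1, 1 without WT mock replicate 2 and 2 without either WT PMA library. It was also 0 with normalised tags and with a replicate block, and 1 with the pseudocount of 250 bp, and at 6-fold 1 bin was called, lower. The bins called were those just upstream of FRMD8 (3.22), over the end of FRMD8 (1.86) and at both ends of the stretch beyond MALAT1 (1.80 and 2.58).

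**Figure D5:**
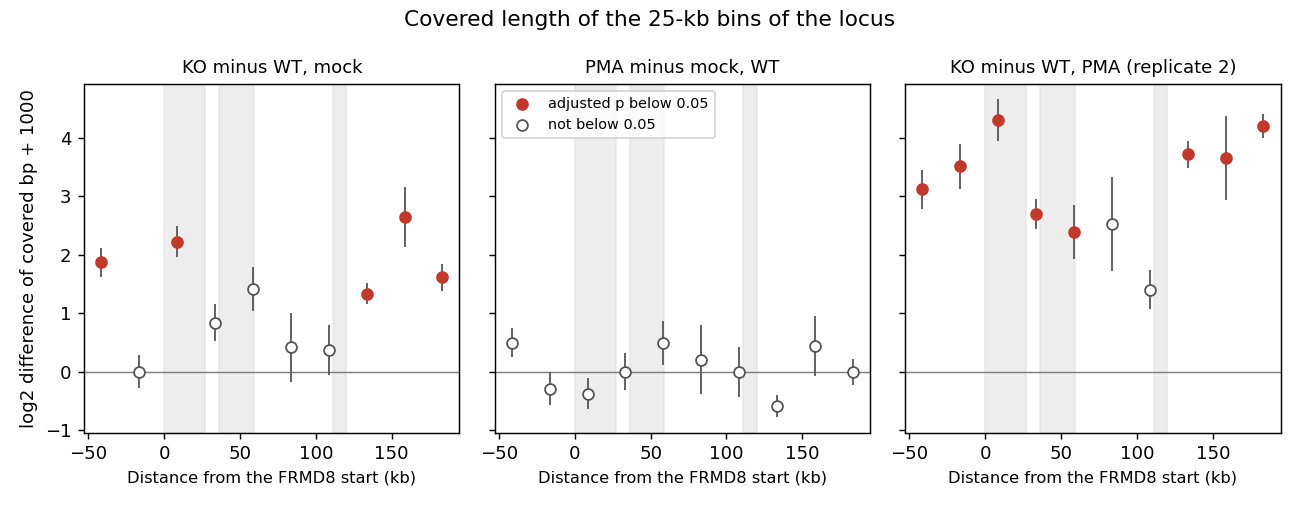
Difference in log2(covered bp + 1000) for each 25-kb bin of the window, placed at the middle of the bin by distance from the FRMD8 start (kb), in 3 comparisons, with SE bars, filled points for adjusted p below 0.05 and grey bands for FRMD8, NEAT1 and MALAT1. KO minus WT is above 0 in 9 of 10 bins in mock cells and in 10 of 10 after PMA (KO PMA replicate 2 only), with the lowest PMA value over MALAT1.

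The 25-kb bins of other parts of the genome whose covered shares over the 8 libraries came closest to FRMD8 were chr9:139900001-139925000, chr19:50150001-50175000 and chr19:17425001-17450000, with root mean square differences of 2.71, 3.40 and 4.88 percentage points. The closest of them holds the second longest region of KO PMA replicate 1, and its shares were 17.7% and 22.1% in KO mock, then 93.7% and 82.0% in KO PMA. FRMD8 was therefore not alone in its pattern over the 8 libraries. For NEAT1 the closest bins were chr19:4925001-4950000, chr1:156175001-156200000 and chr19:45675001-45700000, with differences of 1.09, 1.43 and 1.48 points. For MALAT1, among 10-kb bins, the closest (chr17:28670001-28680000) differed by 0.0008 points and was likewise covered in KO PMA replicate 1 only.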

How the data were processed

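The data are 8 γH2AX ChIP-seq region lists and 1 input library of K562 cells, grouped by the sample titles. The submitters' processing notes name build hg19 and the tools BWA, HOMER and CASAVA 1.4; aligner settings are not given in the sources used here. Per the file headers, regions were called in each library separately from 500-bp windows at a Poisson p-value of 0.001, at least 2-fold over the WT mock input at a p-value of 0.0001, with 1 tag per bp. As deposited, the signal gives each region's tags per 10 M tags of its library. The deposited tag count of a region is unscaled in some files and scaled to the input in others. The deposited ratio is the authors' fold over input, the deposited score is HOMER's, and the p-value deposited with each region is a Poisson p from HOMER. These are the authors' own values and served to describe or filter regions.

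Covered length is the union of regions inside a span, with the tags of a region spread evenly over it. Covered bp in 25-kb bins (covered in at least 2 libraries) and in the gene spans were tested with limma 3.58.1 (R 4.3.3, trend, log2(bp + 1000), two-sided, Benjamini-Hochberg over all features, threshold 0.05), using 8 libraries, or 7 where KO PMA enters. Genes and bins are named as members or bins of the window, and the like bins are the 3 nearest outside 10 Mb. The members and lists were chosen with earlier results of these data known. Alternatives were other pseudocounts, filters, bin widths, fold, length and tag thresholds, region numbers, centring, tags, single libraries left out and a replicate block. Neighbouring genes were not tested, since no hg19 annotation was used here. Region calls carry no replicate error of their own, and depth sets the threshold of each library.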

Additional observations from a re-analysis of the deposited data

Results flagged for a closer look

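Of the 10 bins of the window, 4 had a PMA response that differed between KO and WT cells in a test of that difference (limma, 7 libraries, without KO PMA replicate 1), where 2.90% of all bins were called higher and 8.26% lower. The bin upstream of FRMD8 (chr11:65125001-65150000) differed by 3.51 on the log2 scale (adjusted p = 0.0277), and the bin over the end of FRMD8 and the start of NEAT1 (chr11:65175001-65200000) by 1.86 (0.0478). Beyond MALAT1, the bins chr11:65275001-65300000 and chr11:65325001-65350000 differed by 2.38 (0.0227) and 2.58 (0.0129). In each of the 4, KO PMA is represented by replicate 2 alone. The count of called bins was 0 without WT mock replicate 2 and 1 without WT mock replicate 1 or WT PMA replicate 1 and 2 without WT PMA replicate 2. It was also 0 with normalised tags and with a replicate block, 2 with the pseudocount of 250 bp, and 1, in the lower direction, at 6-fold.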

How the results depend on the processing

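FRMD8, KO minus WT in mock cells, ranged from 1.79 to 2.54 over the libraries left out. After PMA it was 4.40 throughout and could not move. FRMD8 had a covered length of 0 kb in both WT PMA libraries, and KO PMA replicate 2 was never left out. FRMD8 in PMA minus mock ranged from -0.75 to 0.00 in WT and from 1.71 to 2.02 in KO, and its difference of responses from 1.87 to 2.62. NEAT1 ranged from 0.87 to 1, 1.08 to 2.08, 0.00 to 1, 1.08 to 1.21 and 0.15 to 1.15 in the same order of comparisons. With regions of at least 6-fold, FRMD8 gave 0.82 for KO minus WT in mock cells, 0.00 after PMA and -0.82 for both PMA minus mock in KO and the difference of responses. With regions of at least 1000 bp the first was 1.65 and these last 2 were 2.65, with the pseudocount of 250 bp the first was 3.39, and with the same number of regions per library FRMD8 gave 1.34 (KO minus WT, mock) and 2.74 (difference of responses). NEAT1 gave 2.08, 1.15 and 1.15 with 1 tag threshold, 2.36 with normalised tags (KO minus WT, PMA) and -0.085 with centring (PMA minus mock, WT). The bins called of 10 ranged from 1 to 6 (KO minus WT, mock), 0 to 1 (PMA minus mock, WT), 5 to 7 (KO minus WT, PMA), 0 to 4 (PMA minus mock, KO) and 0 to 4 (difference of responses) with 1 library left out. In KO minus WT, mock, 1 bin was called at 6-fold and 2 with equal region numbers. In PMA minus mock, WT, 1 was called with the pseudocount of 250 bp and 1 with centring. In KO minus WT, PMA, 5 were called with the pseudocount of 250 bp, 4 at 1000 bp and 0 at 6-fold. In PMA minus mock, KO, 1 was called with that pseudocount, 1 (lower) at 6-fold, 2 with centring and 0 with normalised tags, and for the difference of responses 2, 1 (lower) and 0 at the first, second and last of these. The cause of these shifts was not tested.

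The labels do not say whether replicate numbers pair the libraries. The correlations of replicate 1 minus 2 between groups over 23216 bins lay between -0.0457 and 0.0961. Low correlations of thresholded region calls do not exclude a pairing. With a replicate block FRMD8 gave 2.16 (KO minus WT, mock), 4.23 (KO minus WT, PMA), 1.69 (PMA minus mock, KO) and 2.07 (difference of responses), on the same side of the threshold, and the bins called were 5, 5, 0 and 0. NEAT1 gave no value at 6-fold, nor at 1000 bp where KO PMA enters. MALAT1 had no fitted value to compare, so its alternatives were not run; a filter of 1 library would admit it to the comparisons without KO PMA only, where its covered length is 0 in each library and the difference 0. Depth and the caller's threshold limit all values: with 2 libraries a group, and 1 for KO PMA, the tests rest on a spread shared over groups.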
